A study of Mus musculus with 12 samples.

Results

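Genes through which skin cells are known to signal to sensory nerves, or to sense heat and touch, were followed here through the epidermis of the mouse hind paw: Bdnf, Ntf3, Artn, Gdnf, Edn1, Tslp, Calcb, Trpv3 and Piezo1. These 9 genes were taken by symbol from the count matrices, which list 32285 genes. The data were single-cell transcriptomes of glabrous (hairless) hind paw skin from C57BL/6J wild-type mice, separated from the dermis with Dispase and dissociated with TrypLE. Mice were 6–8 weeks old when placed for 10 weeks on a regular diet (RD, 11% fat) or a high-fat diet (HFD, 42% fat), so that tissue came from animals of 16–18 weeks. There were 3 libraries in each of 4 groups: RD males, HFD males, RD females and HFD females. The diet is used in the study as a model of painful diabetic neuropathy, and no group carried a transgene or deletion. Tissue was taken from 3 mice in each group, the same number as the libraries, but the labels do not name the mouse of each library, so the replicate below is the library, and p-values measure the spread between libraries.

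Epidermal keratinocytes lie in close contact with the free endings of sensory neurons and release factors that those endings read. BDNF and NT-3 (the product of Ntf3) belong to the neurotrophins, which act on Trk receptors, whereas artemin (Artn) and GDNF belong to the GDNF family, whose ligands act through GFRα co-receptors and RET. Endothelin-1 (Edn1) and TSLP are keratinocyte-derived mediators of pain and itch, Calcb encodes the beta form of the neuropeptide CGRP, TRPV3 is a warmth-sensitive cation channel of keratinocytes and PIEZO1 is a mechanically gated cation channel.

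All 9 genes passed the minimum of 20 unique molecular identifiers (UMIs, each standing for 1 captured transcript) per library in both sexes. The scarcest were Calcb, with 42–115 UMIs per library in males and 83–187 in females, and Artn in females, with 73–125. The most abundant were Edn1 in males, with 1730–4557 UMIs, and Piezo1 in females, with 9622–16916. In GRCm38 coordinates, Bdnf lies at chr2:109674700-109727007 on the plus strand, Ntf3 at chr6:126101412-126166910 on the minus strand, Artn at chr4:117926162-117929763 on the minus strand and Gdnf at chr15:7810846-7837575 on the plus strand. Edn1 lies at chr13:42301476-42307990, Tslp at chr18:32815383-32819797, Calcb at chr7:114718643-114723365 and Trpv3 at chr11:73267388-73300363, all on the plus strand, and Piezo1 at chr8:122481698-122551329 on the minus strand. Genes counted in the same matrices overlap Bdnf (Gm45346), Edn1 (Gm47118) and Piezo1 (Ctu2), each on the opposite strand. Calcb has a close relative in Calca. Of the windows of 50 bases in the last 500 bases of its 3 annotated transcripts, 0 of 451, 0 of 337 and 12 of 451 also occurred in Calca, so that reads from those 12 windows cannot be told apart between the 2 genes.

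The libraries held 134449247–194673581 UMIs in males and 135683082–173907390 in females. After filtering, 62147 of 69981 male and 64228 of 70411 female cell barcodes were kept, and any 2 of the 12 libraries shared 15–70 barcodes. Clusters were named from marker genes, in each sex separately, as basal-like, proliferating-like, migratory-like, suprabasal-like and terminal-like keratinocytes, Langerhans cell (LC)-like cells and T cell-like cells. One further keratinocyte cluster of each sex did not carry enough markers for a name and is called by its leading genes, Krt9 and Il34. In males another cluster of 463 cells with a median of 904 UMIs, led by Lars2 and Gm42418, also stayed unnamed, and it was counted among all keratinocytes but in no class. All keratinocytes stands for every kept cell outside the LC-like and T cell-like cells. No keratinocyte marker was required of them, so that markers of other cell types enter these sums. Of the LC markers, 7 of 7 were highest in the LC-like cells of both sexes, and of the terminal differentiation markers 10 of 10 in males and 9 of 10 in females were highest in the terminal-like cells. The suprabasal-like class was the least clear, with 6 of 9 markers highest there in males and 7 of 9 in females, and 6 of 7 basal markers were highest in the basal-like cells of each sex. Clustering used a resolution of 0.2 in males and 0.4 in females, and classes of the same name did not always hold the same cells. In females the suprabasal-like class took in a Zfp750/Krt9-led cluster of 7976 cells. Krt9 was not among the leading genes of any suprabasal-like cluster of males. The terminal-like class also differed between the sexes. In males it joined an Il1f6/Wfdc21-led cluster of 3489 cells with an Lce1-led cluster of 1015, while in females it was an Lce1-led cluster of 1293 cells, and the Wfdc21/Il1f6-led cluster of 2584 cells carried the markers of the suprabasal-like class.

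The 9 genes had their highest levels in different layers of the epidermis. Ntf3, Gdnf and Tslp were highest in the basal-like class of both sexes, Bdnf was highest in the migratory-like class of both sexes and Artn in that of males (neither Bdnf in females nor Artn in males at the finer resolution of clustering), Calcb was highest in the terminal-like class of females and measured in males in that class alone, and Edn1, Trpv3 and Piezo1 had their highest cluster among the differentiated cells. Where a gene had under 20 UMIs per library on average in a class, it was not measured there, and its value is given with its UMIs and not ranked. Levels are given in CPM, the UMIs of a gene summed over a class in a library and scaled to all UMIs of that class and library, as the mean ± SD over the 6 libraries of a sex. The classes are clusters of the same cells, so the order of levels is a description and carries no test.

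**Figure D1:**
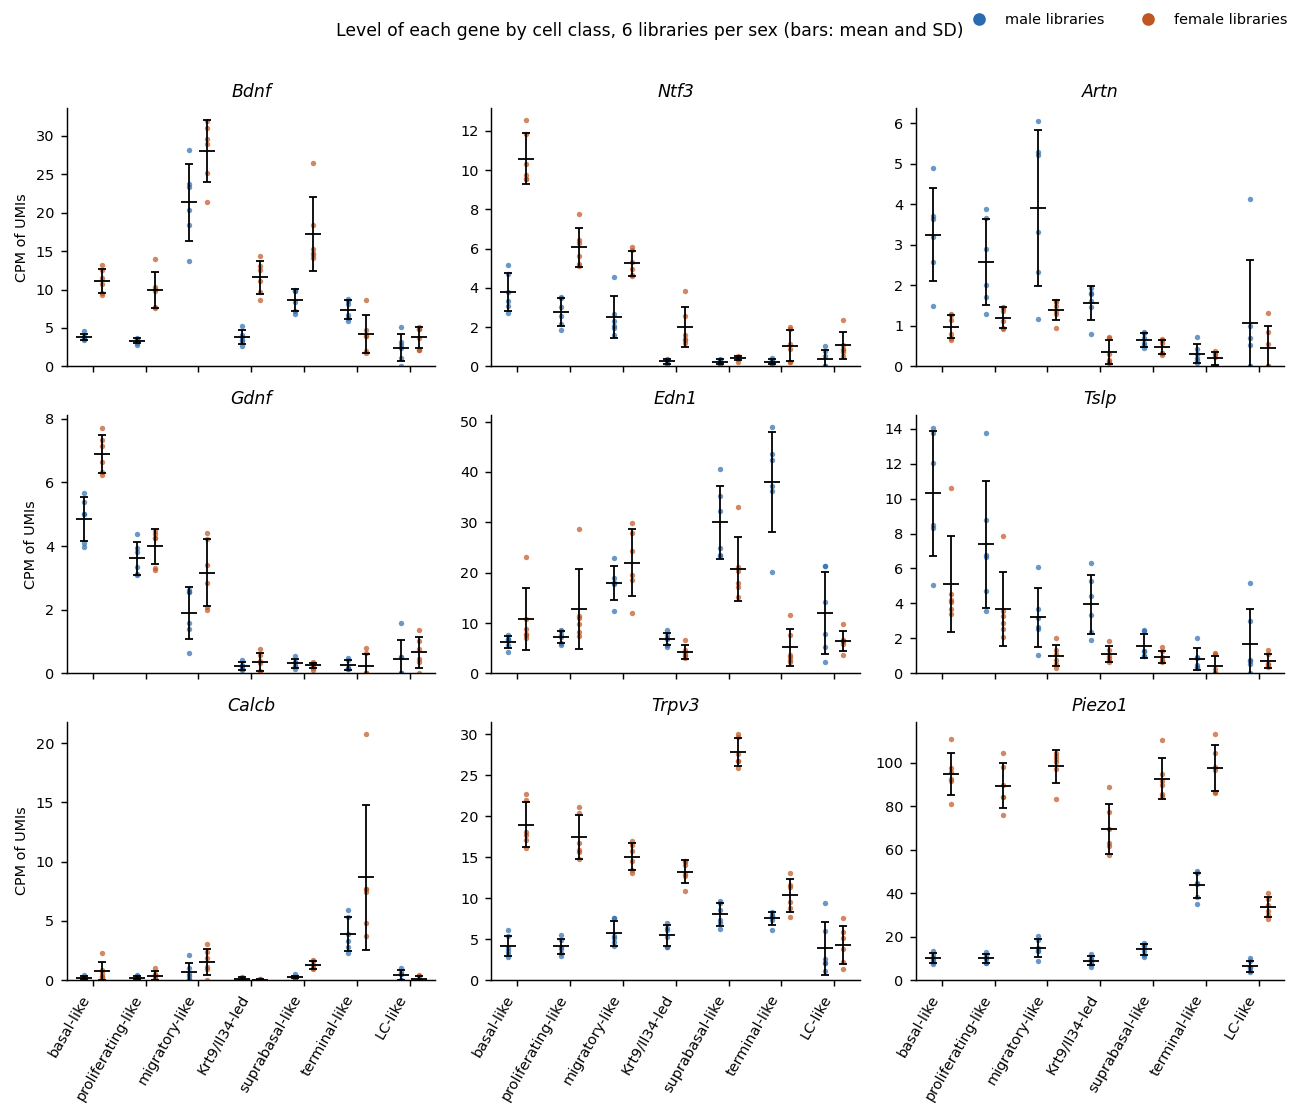
CPM of each of the 9 genes (y axis, one panel per gene) in each cell class (x axis), with 1 point for each of 6 libraries of a sex and the mean ± SD as a bar. Ntf3, Gdnf and Tslp fall from the basal-like class on, Bdnf peaks in the migratory-like class (in females not at the finer resolution), and Calcb stands above the other classes in the terminal-like class.

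Among the neurotrophins, Bdnf was highest in the migratory-like keratinocytes, a class marked by Krt79, Krt17 and Cst6. In males its level there was 21.3 ± 4.97 CPM, from 13.8 through a median of 21.9 to 28.2, and each library lay above every library of the suprabasal-like class, at 8.64 ± 1.40 CPM. The basal-like and proliferating-like classes held 3.87 ± 0.402 and 3.36 ± 0.341 CPM. In females the migratory-like level was 28.0 ± 3.98 CPM, from 21.4 through 29.3 to 31.9, and its range overlapped that of the suprabasal-like class, at 17.2 ± 4.78 CPM. Basal-like cells of females held 11.1 ± 1.59 CPM. Clustering at a finer resolution changed which cells were called migratory-like, and Bdnf there was then 10.2 CPM in males and 15.7 CPM in females. At that resolution the suprabasal-like cells held 8.88 CPM in males, under the migratory-like level, and 18.0 CPM in females, above it, and the ranges overlapped in both sexes. The basal-like cells then held more Bdnf than in the main run, 7.52 CPM in males and 14.7 CPM in females. Their ranges overlapped the migratory-like ranges in both sexes, so the place of Bdnf depends on the clustering.

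Ntf3 was highest in the basal-like class. In females it was 10.6 ± 1.28 CPM in basal-like cells, from 9.55 through 10.0 to 12.5, above every library of the proliferating-like class at 6.07 ± 0.984 CPM. The suprabasal-like class held 0.429 ± 0.105 CPM. In males the basal-like level was 3.80 ± 0.961 CPM, from 2.74 through 3.55 to 5.18, and the proliferating-like class, at 2.77 ± 0.697 CPM, overlapped it. Ntf3 was not measured in the migratory-like class of males, where 14.8 UMIs per library gave 2.53 ± 1.06 CPM, nor in the suprabasal-like class, where 12.2 UMIs gave 0.242 ± 0.119 CPM. Within the female basal-like cells, Ntf3 was highest in an Antxr1-led cluster, at 14.5 ± 2.60 CPM.

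Gdnf, the founding member of its ligand family, followed Ntf3. It was 6.90 ± 0.588 CPM in female basal-like cells, from 6.25 through 6.88 to 7.73, with no overlap with the proliferating-like class at 3.99 ± 0.550 CPM. In males the basal-like level was 4.85 ± 0.682 CPM, from 3.96 through 5.01 to 5.66, and overlapped the proliferating-like level of 3.62 ± 0.514 CPM. Suprabasal-like cells held 0.248 ± 0.0908 CPM in females and 0.317 ± 0.146 CPM in males, on a mean of 14 and 15.8 UMIs per library. Artn was low and spread over the less differentiated classes. In males it was 3.90 ± 1.92 CPM in migratory-like, 3.25 ± 1.15 CPM in basal-like and 2.57 ± 1.07 CPM in proliferating-like cells, and these 3 classes overlapped. At the finer resolution the male basal-like class was the highest, at 3.39 CPM, and the migratory-like class held 2.68 CPM. In females it was 1.21 ± 0.250 CPM in proliferating-like and 0.983 ± 0.292 CPM in basal-like cells, which overlapped, and 0.479 ± 0.177 CPM in suprabasal-like cells. In the female migratory-like class it was not measured, with 9.67 UMIs per library at 1.38 ± 0.248 CPM.

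Of the released mediators, Tslp had its highest level in the basal-like class. In males it was 10.3 ± 3.58 CPM there, from 5.04 through 10.3 to 14.1, next to 7.37 ± 3.61 CPM in proliferating-like cells and 1.57 ± 0.687 CPM in suprabasal-like cells. In females the basal-like level was 5.10 ± 2.73 CPM, from 3.42 through 4.14 to 10.6, and 1 library, HFD replicate 3, set the upper end. Edn1 was placed in the upper layers in males. The terminal-like class held 38.1 ± 9.92 CPM, from 20.2 through 39.8 to 48.9, and the suprabasal-like class 29.96 ± 7.21 CPM, and every library of the latter lay above the migratory-like class at 18.0 ± 3.39 CPM. The terminal-like level of males depended on which cells were kept and named: it was 13.4 CPM at the finer resolution, 22.1 CPM with cells of up to 10% mitochondrial UMIs and 10.1 CPM with doublets removed. In females the migratory-like and suprabasal-like levels of Edn1, 22.0 ± 6.63 and 20.7 ± 6.39 CPM, overlapped.

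Calcb, a neuropeptide gene better known from sensory neurons, was measured in males in the terminal-like class, at 3.93 ± 1.43 CPM, from 2.33 through 3.61 to 5.96, and it was not measured in any other male class, where it had at most 13.3 UMIs per library. In females the terminal-like level was 8.67 ± 6.15 CPM, from 3.73 through 7.53 to 20.7, and no library of another class reached it. The other female classes in which Calcb was measured were the suprabasal-like cells, at 1.27 ± 0.340 CPM, and the basal-like cells, at 0.770 ± 0.781 CPM. Migratory-like cells, with 10.8 UMIs per library, gave 1.57 ± 1.11 CPM. The alpha form of CGRP, Calca, was at or under 0.084 CPM in every library.

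The channels differed in how far they were graded. Trpv3 in females was 27.8 ± 1.70 CPM in suprabasal-like cells, from 25.9 through 27.2 to 30.03, above every library of the basal-like class at 18.9 ± 2.73 CPM, and was lowest among keratinocytes in the terminal-like class at 10.4 ± 2.00 CPM. In males the suprabasal-like and terminal-like levels of Trpv3, 8.03 ± 1.38 and 7.56 ± 0.771 CPM, overlapped, and basal-like cells held 4.17 ± 1.27 CPM. Piezo1 in males was 43.7 ± 5.86 CPM in terminal-like cells, from 35.2 through 44.5 to 50.1, and the remaining keratinocyte classes lay between 9.03 ± 2.01 CPM in the Krt9/Il34-led class and 14.8 ± 4.11 CPM in the migratory-like class. T cell-like cells held 42.5 ± 17.5 CPM in males and 71.2 ± 32.9 CPM in females, but on a mean of 2.17 and 11.2 UMIs per library, so that Piezo1 was not measured there. In females 5 keratinocyte classes overlapped between 89.5 ± 10.3 and 98.3 ± 7.73 CPM, and the Krt9/Il34-led class was the lowest, at 69.6 ± 11.6 CPM.

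Single clusters showed a likeness that the class names hid. In females the Wfdc21/Il1f6-led cluster held 46.0 ± 8.48 CPM of Edn1, 47.5 ± 5.09 CPM of Trpv3 and 162 ± 12.9 CPM of Piezo1, and for each of these genes its 6 libraries lay above those of the next cluster. In males the cluster led by the same genes, Il1f6 and Wfdc21, held 49.6 ± 13.4 CPM of Edn1, 9.68 ± 1.42 CPM of Trpv3 and 44.7 ± 6.55 CPM of Piezo1. It also held 4.94 ± 1.91 CPM of Calcb. The cells of these clusters were rich in RNA, with medians of 20250.5 UMIs in females and 16572 in males, whereas CPM is relative to the RNA of the cells it is taken over. The Has2/Mmp3-led basal-like cluster of females held 7.79 ± 4.60 CPM of Tslp, 107 CPM of Piezo1 and 24.7 CPM of Trpv3.

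The promoters of the 3 genes that shared the Wfdc21/Il1f6-led cluster, Edn1, Trpv3 and Piezo1, and of Artn, which had the one call by edgeR between the diets within a class, are shown as the 250 bases before the RefSeq transcription start (GRCm38.p6), 5′ to 3′ on the strand of the gene. Capitals mark 4 motifs on either strand. AP-1 was searched as TGANTCA, with N for any base. The cyclic AMP response element, CRE, was searched as TGACGTCA. The letters searched for GATA factors were AGATAA, and those searched for Krüppel-like factors, KLF, were CACCC. The windows are chr13:42301226-42301475 (plus) for Edn1, chr11:73267270-73267519 (plus) for Trpv3, chr8:122551330-122551579 (minus) for Piezo1 and chr4:117929764-117930013 (minus) for Artn.
Edn1: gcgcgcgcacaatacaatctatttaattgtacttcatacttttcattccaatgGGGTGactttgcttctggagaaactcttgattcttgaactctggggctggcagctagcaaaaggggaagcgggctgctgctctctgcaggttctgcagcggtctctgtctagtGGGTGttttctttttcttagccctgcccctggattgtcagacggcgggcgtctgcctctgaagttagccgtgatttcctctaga
Trpv3: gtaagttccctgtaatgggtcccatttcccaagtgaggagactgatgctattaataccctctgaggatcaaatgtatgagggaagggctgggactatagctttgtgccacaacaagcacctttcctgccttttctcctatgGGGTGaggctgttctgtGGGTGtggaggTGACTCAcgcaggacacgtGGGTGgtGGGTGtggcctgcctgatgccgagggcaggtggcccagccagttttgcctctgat
Piezo1: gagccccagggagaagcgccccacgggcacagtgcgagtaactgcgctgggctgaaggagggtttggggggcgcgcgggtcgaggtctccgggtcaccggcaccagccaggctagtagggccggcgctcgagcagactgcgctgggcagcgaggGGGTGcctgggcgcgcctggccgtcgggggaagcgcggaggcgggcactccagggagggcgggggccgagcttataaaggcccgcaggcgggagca
Artn: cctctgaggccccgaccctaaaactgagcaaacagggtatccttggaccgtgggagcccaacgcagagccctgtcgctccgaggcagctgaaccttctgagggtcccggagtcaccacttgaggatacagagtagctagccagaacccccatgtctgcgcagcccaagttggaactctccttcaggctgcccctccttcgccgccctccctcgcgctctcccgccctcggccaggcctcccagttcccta

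The Trpv3 window held 1 AP-1 match, 81 bases before the RefSeq start, and 4 CACCC matches. Unlike the other windows shown, it runs into the gene position given above, which begins at 73267388. Its matches lie inside that position, before the RefSeq start. Edn1 held 2 CACCC matches, Piezo1 held 1, and Artn held none of the 4 motifs, and no match overlapped another. Of 32851 promoter windows of the same length, 6.75% held the AP-1 letters, 1.55% CRE, 9.99% GATA and 52.0% CACCC. A match is a stretch of letters and not a measured binding site. RefSeq windows were taken for 7 of the 9 genes, without Calcb and Tslp. Entries on chr18, where Tslp lies, were left out.

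In LC-like cells, 8 of the 9 genes had fewer than 20 UMIs per library on average in females and 9 of 9 in males, so that their levels there were not measured. The exception was Piezo1 in females, with a mean of 100 UMIs per library and 33.7 ± 4.48 CPM, from 28.2 through 33.2 to 40.1, below every library of each female keratinocyte class. The summed UMIs gave LC-like levels of 12.2% to 59.5% of the keratinocyte level over the 9 genes in females and 26.1% to 70.9% in males. Keratin transcripts were present in the same cells: Krt5, Krt14, Krt1 and Krt10 stood at 24.0%, 24.9%, 27.5% and 26.2% of the keratinocyte level in female and at 31.8%, 30.8%, 48.4% and 46.7% in male LC-like cells. Keratins led a subcluster of 267 of the 1332 male and 332 of the 2144 female LC-like cells. In the LC-like cells with the lowest keratin share, where the 4 keratins lay at or under 1.73% in males and 0.978% in females, Bdnf stood at 4.28% and 5.44%, Trpv3 at 6.58% and 2.42% and Gdnf at 0% and 0% of the keratinocyte level in males and females. Edn1 stood at 7.62% and 24.5%, Tslp at 9.74% and 21.6% and Piezo1 at 22.2% and 16.6% in the same order. Ntf3 stood at 0% and 3.28%, Artn at 0% and 0%, and Calcb at 105.02% and 0%, the first on a mean of 0.333 UMIs per library, beside 70.9% in all male LC-like cells. Each of these shares rests on at most 4.33 UMIs per library except that of Piezo1 in females, with a mean of 17 UMIs at 15.02 CPM, so that none of the 9 genes was measured in the low-keratin cells. What part of these counts came from keratinocyte RNA was not tested.

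**Figure D2:**
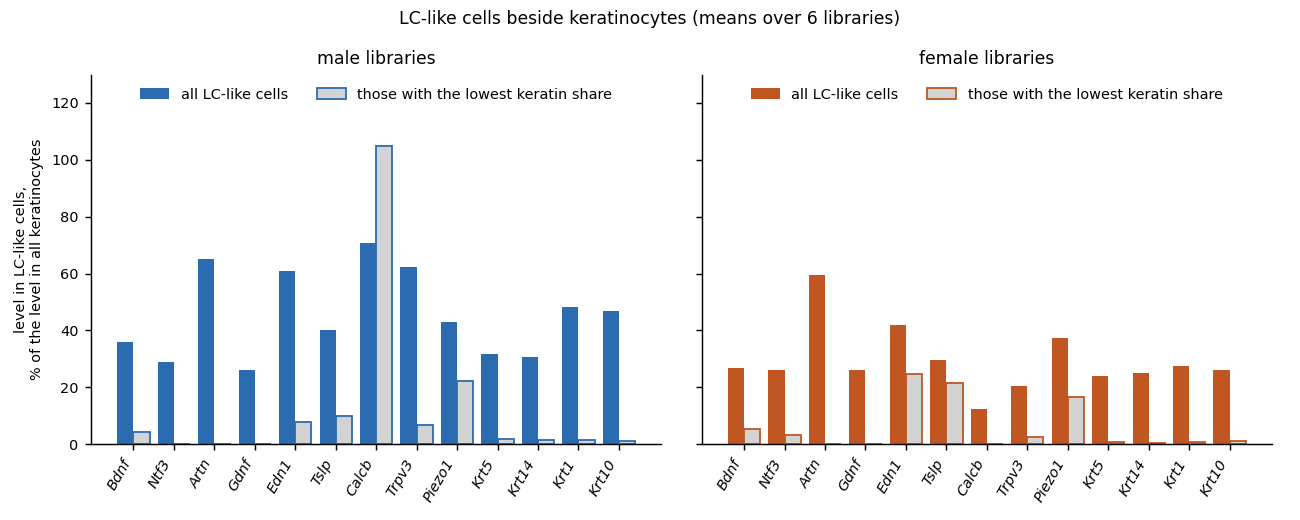
Level in LC-like cells as a percentage of the level in all keratinocytes (y axis) for the 9 genes and 4 keratins (x axis) in each sex, for all LC-like cells and for those with the lowest keratin share. The keratins drop to at most 1.73% in the low-keratin cells, and the bars of the 9 genes in those cells rest on at most 17 UMIs per library, with 4.33 for Edn1, 0.5 for Tslp and 17 for Piezo1 in females and 1.5 for Piezo1 and 0.333 for Calcb in males.

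Set side by side, 6 of the 9 genes had a higher level in the keratinocytes of the female than of the male libraries, and 3 a lower one. The ratio of the mean levels was 5.93 for Piezo1, 3.41 for Trpv3, 3.01 for Ntf3, 2.11 for Bdnf, 1.68 for Calcb and 1.52 for Gdnf, and 0.781 for Edn1, 0.563 for Tslp and 0.465 for Artn, beside a median of 1.46 over 14881 genes. The file headers name Cell Ranger 6.1.0 for every male and 7.2.0 for every female library, so that sex and counting software cannot be told apart, and no test between the sexes is given. The 4 genes with the highest ratios have at least 27141 intronic bases and the 3 with a ratio under 1 have at most 4376. Calcb, with a ratio of 1.68, has 3459, whereas Gdnf, with a lower ratio of 1.52, has 23056. The part of counted intron reads in these ratios was not tested.

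The design compares HFD with RD in each sex. Over all keratinocytes, none of the 9 genes passed an adjusted p of 0.05 in either sex with edgeR. The log2 fold changes farthest from 0 were those of Artn and Tslp in females and of Calcb in males. In each library the values below are CPM over all keratinocytes, and a log2 fold change is HFD against RD with its standard error (SE). In sums over all keratinocytes, a shift in the share of a class and a change within a class cannot be told apart. Tests within single classes are given further below.

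Artn in females was 0.861, 0.959 and 0.904 CPM in RD replicates 1, 2 and 3 and 0.608, 0.635 and 0.579 CPM in HFD replicates 1, 2 and 3. Every RD library lay above every HFD library, with means of 0.908 ± 0.049 and 0.608 ± 0.028 CPM. The log2 fold change was -0.64 ± 0.15 with an adjusted p of 0.0594 by edgeR and 0.0326 by DESeq2. Tslp in females was 1.62, 1.74 and 1.82 CPM in the RD libraries and 2.00, 2.48 and 4.62 CPM in the HFD libraries. Every HFD library lay above every RD library, and replicate 3 of the HFD group was far above its companions. The log2 fold change of Tslp was 0.75 ± 0.28 with an adjusted p of 0.171 by edgeR and 0.0391 by DESeq2, and it was 0.30 with an adjusted p of 0.328 without HFD replicate 3.

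That library was also the highest for Edn1 and Bdnf. Edn1 in females was 11.5, 13.5 and 15.2 CPM under RD and 12.7, 11.7 and 27.3 CPM under HFD. The groups overlapped, and the log2 fold change went from 0.30 ± 0.30 to -0.21 without HFD replicate 3. Bdnf was 12.2, 11.5 and 15.3 CPM under RD and 13.3, 13.6 and 20.02 CPM under HFD, with a log2 fold change of 0.21 ± 0.17 that went to -0.02 without the same library. The 10 immediate-early and stress genes examined summed to 8314, 8689 and 8447 CPM in HFD replicates 1, 2 and 3 and to 7393–8622 CPM in the RD libraries.

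Ntf3 in females was 3.67, 3.67 and 3.40 CPM under RD and 3.61, 5.40 and 4.82 CPM under HFD, a log2 fold change of 0.29 ± 0.13 with an adjusted p of 0.234. The groups overlapped through HFD replicate 1. Gdnf was 2.59, 2.33 and 2.31 CPM under RD and 2.48, 2.95 and 2.56 CPM under HFD, with a log2 fold change of 0.08 ± 0.11. Trpv3 was 20.02, 20.7 and 20.03 CPM under RD and 23.6, 20.5 and 23.1 CPM under HFD, with a log2 fold change of 0.09 ± 0.08. Neither gene separated the diets, and the adjusted p were 0.709 and 0.597. Piezo1 was 81.3, 90.2 and 86.3 CPM under RD and 107, 93.7 and 85.5 CPM under HFD, and its log2 fold change of 0.09 ± 0.10, with an adjusted p of 0.633, was -0.03 without HFD replicate 1. Calcb was 0.716, 1.46 and 1.26 CPM under RD and 1.03, 0.685 and 1.37 CPM under HFD, a log2 fold change of -0.22 ± 0.32 whose sign turned without RD replicate 2 or HFD replicate 2.

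**Figure D3:**
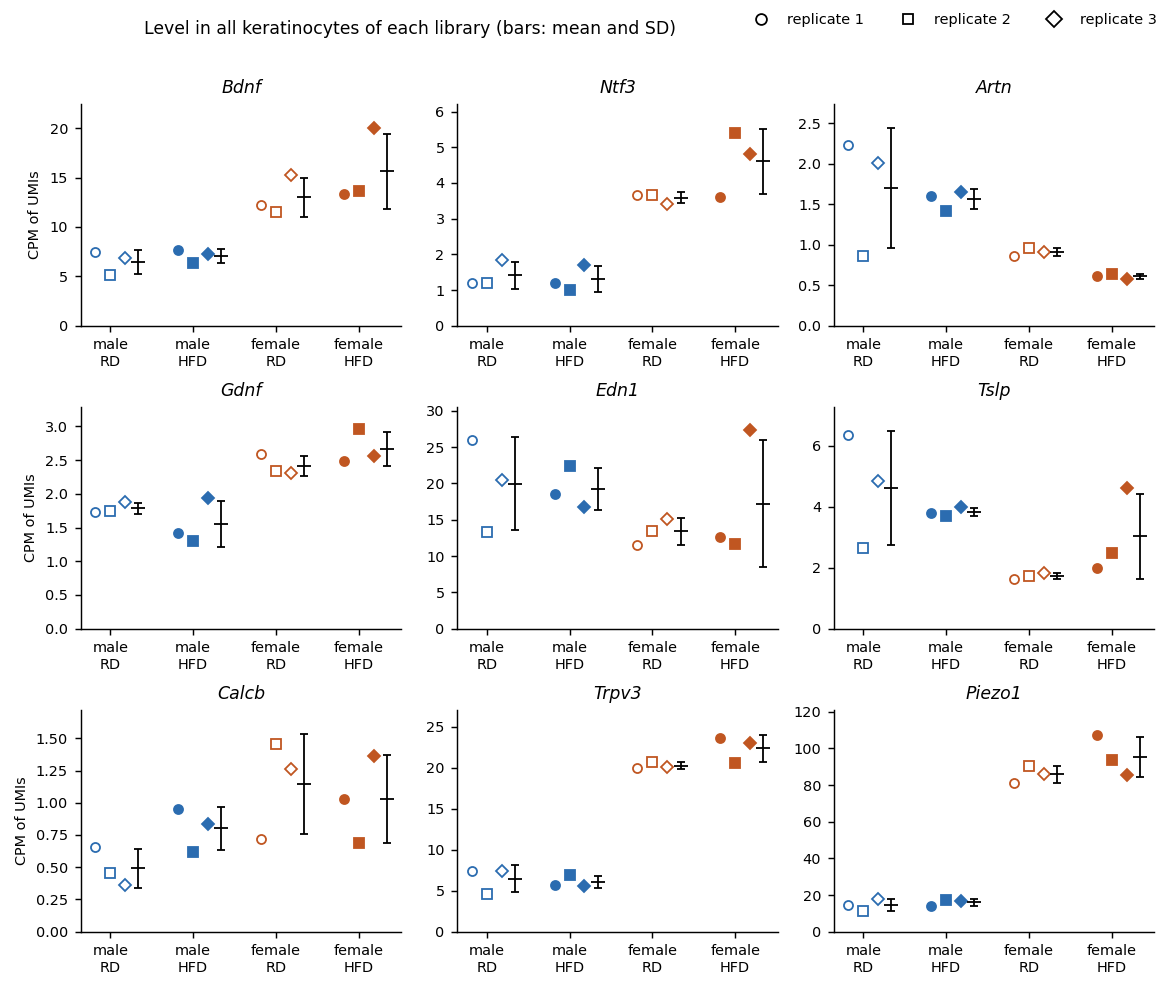
CPM over all keratinocytes (y axis, one panel per gene) in each library by sex and diet (x axis), open symbols for RD and filled symbols for HFD, with the marker shape giving the replicate number. In females the 3 Artn values lie lower and the 3 Tslp values higher under HFD than under RD, and HFD replicate 3 is the highest female library for Tslp, Edn1 and Bdnf.

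In males Calcb was 0.658, 0.458 and 0.361 CPM under RD and 0.949, 0.617 and 0.835 CPM under HFD. The highest RD library overlapped the lowest HFD library, and the log2 fold change was 0.73 ± 0.27 with an adjusted p of 0.468. Summed terminal differentiation markers, the class in which Calcb was measured, were 10027–11536 CPM in RD and 14377–17724 CPM in HFD males, without overlap. Lower under HFD, also without overlap, were LC markers (23.8–34.7 CPM in RD and 18.6–23.5 CPM in HFD) and T cell markers (8.65–10.4 and 7.31–7.92 CPM). So were Merkel cell markers (3.57–5.56 and 2.51–3.33 CPM) and sensory neuron markers (0.0981–0.158 and 0.0607–0.0751 CPM). The sensory neuron markers were each under 20 UMIs per library. The part of these lists in the Calcb values was not tested. Within the terminal-like cells of males, the log2 fold change of Calcb was 0.57 ± 0.32 with an adjusted p of 0.276 by edgeR, and the groups overlapped. Bdnf was 7.49, 5.14 and 6.83 CPM under RD and 7.62, 6.32 and 7.30 CPM under HFD, a log2 fold change of 0.18 ± 0.15. Piezo1 was 14.3, 11.3 and 17.8 CPM under RD and 14.0, 17.5 and 16.8 CPM under HFD, a log2 fold change of 0.22 ± 0.15. Without RD replicate 2 these changes were 0.03 for Bdnf and 0.06 for Piezo1, while without RD replicate 1 that of Bdnf was 0.33 and without RD replicate 3 that of Piezo1 was 0.37.

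For the other 6 genes in males the log2 fold changes lay between -0.22 and 0.00, with adjusted p of at least 0.838. Tslp was 6.37, 2.66 and 4.84 CPM under RD and 3.80, 3.71 and 3.99 CPM under HFD, so that the RD libraries spread on both sides of the HFD libraries. Edn1 had the same layout, with 26.1, 13.4 and 20.5 CPM under RD and 18.6, 22.4 and 16.7 CPM under HFD. Ntf3 was 1.20, 1.19 and 1.85 CPM under RD and 1.21, 1.00 and 1.71 CPM under HFD, and in each diet replicate 3 was the highest. Artn was 2.23, 0.854 and 2.01 CPM under RD and 1.60, 1.42 and 1.66 CPM under HFD, with the widest spread among the RD libraries. Gdnf was 1.74, 1.74 and 1.87 CPM under RD and 1.42, 1.29 and 1.94 CPM under HFD. Trpv3 was 7.42, 4.57 and 7.40 CPM under RD and 5.71, 6.88 and 5.53 CPM under HFD. RD replicate 2 was the lowest male library for Artn, Edn1, Tslp, Trpv3, Bdnf and Piezo1, and its kept cells had the fewest UMIs of the male libraries, with a median of 6577. The sign of the male change turned on leaving out a single library for Ntf3 (RD 3 or HFD 2), Artn (RD 1 or RD 3), Edn1 (RD 2 or HFD 2), Tslp (RD 1) and Trpv3 (RD 1, RD 3 or HFD 3).

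By count, edgeR called 0 of the 9 genes in males, beside 0% of 15069 genes tested. DESeq2 also called 0, beside 202 of all genes. At an unadjusted p under 0.05 there was 1 of 9, Calcb, beside 9.06% of all genes. In females edgeR called 0 of 9 beside 3.35% of 17740 genes, which is 595 genes. DESeq2 called 2, Artn and Tslp, beside 1441 of all genes. At an unadjusted p under 0.05 there were the same 2 of 9 beside 21.7% of all genes. The libraries of RD and HFD did not overlap for 0 of 9 genes in males, beside 16.5% of all genes (4.27% with HFD above RD and 12.2% with RD above HFD). In females they did not overlap for 2 of 9, beside 27.3%, with HFD above RD for Tslp, beside 19.2%, and RD above HFD for Artn, beside 8.11%. The median log2 fold change of the 9 genes was -0.04 in males and 0.09 in females, beside -0.01 and 0.01 over all genes tested. In females the summed basal markers, 7743–8557 CPM under RD and 9343–10165 CPM under HFD, and the proliferation markers, 534–625 and 641–740 CPM, also stood apart by diet, and their part in the values of Ntf3 and Tslp was not tested.

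Within single keratinocyte classes, a gene was tested where it had at least 20 UMIs per library on average. Where RD and HFD libraries do not overlap in a class, the share of all genes that do so was not counted there. Over all keratinocytes that share was 16.5% in males and 27.3% in females, so a lack of overlap in a class is a description. Of 39 such pairs of gene and class in females, 1 passed the threshold, Artn in suprabasal-like cells, beside 4.51% of the genes tested in that class, and 10 had an unadjusted p under 0.05. In 5 of the 39 pairs the mean of 1 diet was under 20 UMIs. Of the 34 pairs that reached it in both diets, edgeR called 0 and 7 had an unadjusted p under 0.05. Of all genes tested, the share past the threshold in females was 0.82% in basal-like, 2.35% in proliferating-like, 0.213% in migratory-like, 0.606% in Krt9/Il34-led and 0% in terminal-like cells. At an unadjusted p under 0.05 the female shares were 15%, 20.4%, 14.3%, 16.6% and 7.01% in the same order and 23.3% in suprabasal-like cells. Artn there was 0.586, 0.659 and 0.667 CPM in the RD libraries and 0.330, 0.337 and 0.294 CPM in the HFD libraries. Every RD library lay above every HFD library, and the log2 fold change was -1.03 ± 0.23 with an adjusted p of 0.0401 by edgeR. The pair reached the minimum of 20 UMIs through the RD libraries, with a mean of 35.3 UMIs, while the HFD libraries had a mean of 17, so that the call is no support for a change beyond its values. It was lost without any 1 of the 6 libraries (adjusted p between 0.0569 and 0.151), with a replicate block (0.0938) and at the finer resolution (-0.85, adjusted p of 0.205). With cells of up to 10% mitochondrial UMIs or with doublets removed, Artn fell under the low-count filter in this class. DESeq2 gave Artn no adjusted p there.

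The same direction held for Artn in the other female classes in which it was measured. Basal-like cells held 1.15, 1.30 and 1.28 CPM under RD and 0.812, 0.657 and 0.705 CPM under HFD, a log2 fold change of -0.78 ± 0.24 with an adjusted p of 0.174. Proliferating-like cells held 1.47, 1.37 and 1.43 CPM under RD and 1.12, 0.937 and 0.912 CPM under HFD, a log2 fold change of -0.52 ± 0.22 with an adjusted p of 0.216. In both classes the RD libraries lay above the HFD libraries. The classes come from the same 6 libraries, so their shared direction is not separate evidence.

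Proliferating-like cells of females were the class in which most of the 9 genes passed an unadjusted p of 0.05: Artn, with the lower HFD values given above, and Bdnf, Edn1, Tslp and Trpv3, with higher ones. Bdnf there was 7.54, 7.79 and 10.0 CPM under RD and 10.3, 9.77 and 14.0 CPM under HFD, a log2 fold change of 0.41 ± 0.16. Edn1 was 7.49, 8.23 and 11.3 CPM against 11.0, 9.82 and 28.7 CPM, a log2 fold change of 0.86 ± 0.36. Tslp was 2.06, 3.30 and 2.56 CPM against 2.86, 3.57 and 7.87 CPM, a log2 fold change of 0.81 ± 0.36, which was 0.23 without HFD replicate 3. That library was the highest for all 3 of these genes. Trpv3 was 16.7, 15.7 and 14.7 CPM against 20.4, 15.9 and 21.2 CPM, a log2 fold change of 0.28 ± 0.12. The groups overlapped for Bdnf, Edn1, Tslp and Trpv3, and the adjusted p lay between 0.189 and 0.233. With no filter on low counts, edgeR called Edn1 (adjusted p = 0.00344) and Tslp (0.0229), beside 955 of all genes in this class, against 334 in the main run. Trpv3 was called without HFD replicate 2 (0.0312), where leaving out 1 library gave 1 to 794 of all genes. The background at an unadjusted p under 0.05 in this class was 20.4% of genes.

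Calcb in female terminal-like cells was 7.72, 20.7 and 7.41 CPM under RD and 7.66, 4.79 and 3.73 CPM under HFD, on means of 41 and 18.3 UMIs, with the highest value in RD replicate 2. In female basal-like cells it was 0.318, 0.223 and 0.580 CPM under RD and 0.906, 0.313 and 2.28 CPM under HFD, on means of 9.33 and 31.3 UMIs. The groups overlapped in both classes, neither pair passed the threshold, and no change is read from either since 1 diet was under 20 UMIs. Trpv3 in female suprabasal-like cells was 26.7, 26.8 and 25.9 CPM under RD and 29.7, 30.03 and 27.6 CPM under HFD. These groups did not overlap, but the log2 fold change was 0.10 ± 0.06 with an adjusted p of 0.335.

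In males 0 of 38 pairs of gene and class passed the threshold with DESeq2, beside 7 to 427 of all genes per class. With edgeR 0 passed as well, and 2 had an unadjusted p under 0.05. Of all genes tested, the male share past the threshold was 0% in every class except the terminal-like one. At an unadjusted p under 0.05 it was 6.62% in basal-like, 7.11% in proliferating-like, 4.83% in migratory-like and 6.14% in Krt9/Il34-led cells. Bdnf in terminal-like cells was 6.75, 6.29 and 5.94 CPM under RD and 8.71, 8.07 and 8.53 CPM under HFD. Every HFD library lay above every RD library, and the log2 fold change was 0.55 ± 0.15 with an adjusted p of 0.0835, beside 0.0097% of genes past the threshold and 26.1% at an unadjusted p under 0.05 in that class. On leaving out 1 library this log2 fold change of Bdnf was 0.48 to 0.62, but under the other alternatives it fell to as low as 0.20. Tslp in male suprabasal-like cells was 2.42, 1.29 and 2.45 CPM under RD and 0.968, 1.01 and 1.26 CPM under HFD. The RD libraries lay above the HFD libraries by a narrow margin, with a log2 fold change of -0.87 ± 0.27 and an adjusted p of 0.315, beside 12.3% of genes at an unadjusted p under 0.05.

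**Figure D4:**
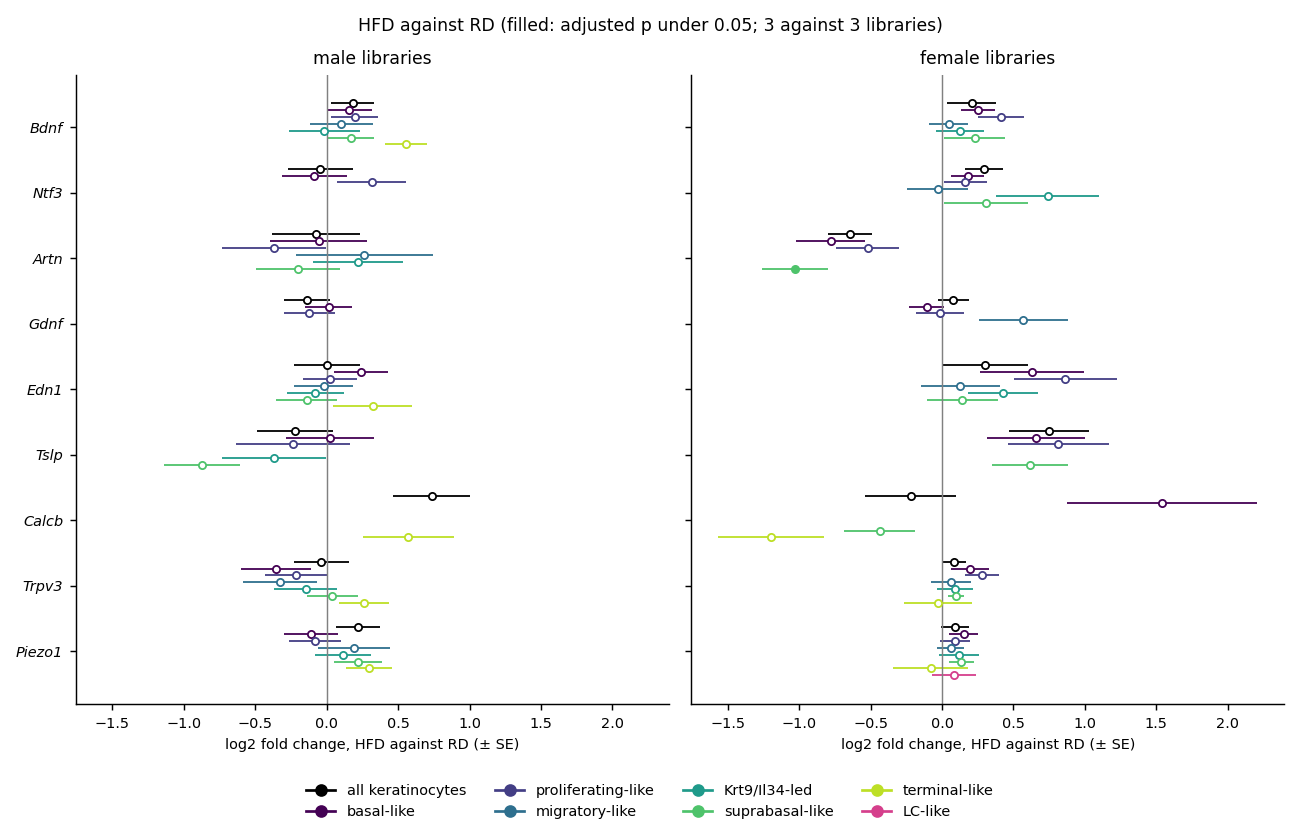
Log2 fold change of HFD against RD ± SE (x axis) of each of the 9 genes (y axis) over all keratinocytes and in each class where the gene was measured, males and females in separate panels, with filled symbols for an adjusted p under 0.05. Artn in female suprabasal-like cells, at -1.03, is the filled symbol, and the male values lie on both sides of 0.

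In LC-like cells, Piezo1 in females could be compared between the diets. It was 30.2, 40.1 and 28.3 CPM under RD and 37.4, 32.0 and 34.5 CPM under HFD, and the groups overlapped. The log2 fold change was 0.08 ± 0.15 with an adjusted p of 0.904, beside 0.0659% of 10626 genes called and 9.76% at an unadjusted p under 0.05. In male LC-like cells no gene of the 9 was measured, and of all genes 0% passed the threshold with edgeR and 4.95% had an unadjusted p under 0.05.

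The diet effect was compared between the sexes by an interaction term over all 12 libraries. DESeq2 called 0 of 9 genes, beside 986 of all genes. By edgeR 0 of 9 were called, beside 1.53% of 18012 genes. At an unadjusted p under 0.05 there was 1 of 9, Tslp, beside 16.6% of all genes. The male minus female difference in log2 fold change was -0.99 ± 0.43 for Tslp with an adjusted p of 0.267, and -0.55 without female HFD replicate 3. It was 0.94 ± 0.46 for Calcb and 0.55 ± 0.38 for Artn, with adjusted p of 0.325 and 0.515. The other 6 genes lay between -0.35 and 0.11.

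The receptors, processing enzymes and relatives of the 9 genes were grouped into 5 lists of 58 genes in all. In females 5 of these genes passed the threshold over all keratinocytes, beside 3.35% of all genes, and in males none did with edgeR. In the neurotrophin and GDNF family list, 12 of 15 genes could be tested in females, of which 1 was higher and 1 lower. Ntrk2, the receptor of BDNF, was 21.8, 19.4 and 17.5 CPM under RD and 30.2, 30.1 and 24.9 CPM under HFD, a log2 fold change of 0.48 ± 0.10 with an adjusted p of 0.0403. Sort1, which encodes sortilin, a sorting receptor for neurotrophins, was 19.3, 18.6 and 18.4 CPM under RD and 15.6, 15.4 and 15.6 CPM under HFD, a log2 fold change of -0.33 ± 0.06 with an adjusted p of 0.0332. In neither gene did the groups overlap. Ntrk2 was highest in female basal-like cells, at 48.1 CPM, against 6.92 CPM in suprabasal-like cells, and Sort1 stood at 2.91 and 28.8 CPM in these classes. The basal and proliferation markers of females also stood apart by diet, as given above, and so did 3 lists of other cell types. Summed Merkel cell markers, of which Krt20, Atoh1 and Sox2 were under 20 UMIs per library, were 4.05–4.67 CPM in RD and 4.83–7.50 CPM in HFD females. Schwann cell markers were lower under HFD, 44.3–44.6 CPM in RD and 36.6–43.1 CPM in HFD females, and so were sweat gland markers, 31.2–35.6 and 26.6–28.4 CPM, of which Dcpp1 was at 0. The part of these lists in the values of the 5 called genes and of the 9 genes was not tested. The median of the list was 0.19 in females and 0.25 in males, and in males 11 genes were tested with 0 called and 3 at an unadjusted p under 0.05, beside 9.06% of all genes.

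In the endothelin list, 1 of 6 tested genes was lower and none higher in females. It was Ece1, the endothelin-converting enzyme, with 101, 100.4 and 91.2 CPM under RD and 77.6, 90.2 and 77.4 CPM under HFD, a log2 fold change of -0.32 ± 0.07 with an adjusted p of 0.0408. In the CGRP list, 1 of 5 was higher: Ramp2, a receptor activity-modifying protein that forms an adrenomedullin receptor with Calcrl, with 0.741, 0.632 and 0.559 CPM under RD and 1.27, 1.30 and 1.42 CPM under HFD, a log2 fold change of 0.99 ± 0.16 with an adjusted p of 0.0259. The summed endothelial markers, of which Cdh5, Kdr and Cldn5 were under 20 UMIs per library, were 4.73–5.47 CPM in RD and 4.94–12.2 CPM in HFD females, and their part in the Ramp2 values was not tested. Among sensory channels, 1 of 14 was lower, the mechanosensitive channel Tmem63b, with 55.6, 54.5 and 53.8 CPM under RD and 48.7, 49.5 and 46.4 CPM under HFD, a log2 fold change of -0.24 ± 0.05 with an adjusted p of 0.0478. In the TSLP and itch list, 0 of 12 tested genes were called in females by edgeR and 4 had an unadjusted p under 0.05, beside 21.7% of all genes, and the highest gene of the list was Spink5, a protease inhibitor of the upper epidermis, at 219 CPM. Trpa1 was at 0 in every library.

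All 5 calls lost the threshold on leaving out single libraries, Ntrk2 and Tmem63b without any 1 of the 6, Sort1 and Ramp2 without any RD library or HFD replicate 3, and Ece1 without any library but HFD replicate 2. In these repeats the log2 fold change was 0.40 to 0.56 for Ntrk2 and 0.90 to 1.09 for Ramp2. It was -0.36 to -0.30 for Sort1, -0.36 to -0.28 for Ece1 and -0.27 to -0.22 for Tmem63b. In males the lists had median log2 fold changes of 0.25 (neurotrophin and GDNF family), 0.24 (endothelin), 0.05 (TSLP and itch), -0.01 (CGRP) and -0.13 (channels). edgeR called 0 genes of each list in males. In the same order, 3 of 11, 0 of 4, 3 of 12, 0 of 5 and 0 of 11 tested genes had an unadjusted p under 0.05, beside 9.06% of all genes.

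**Figure D5:**
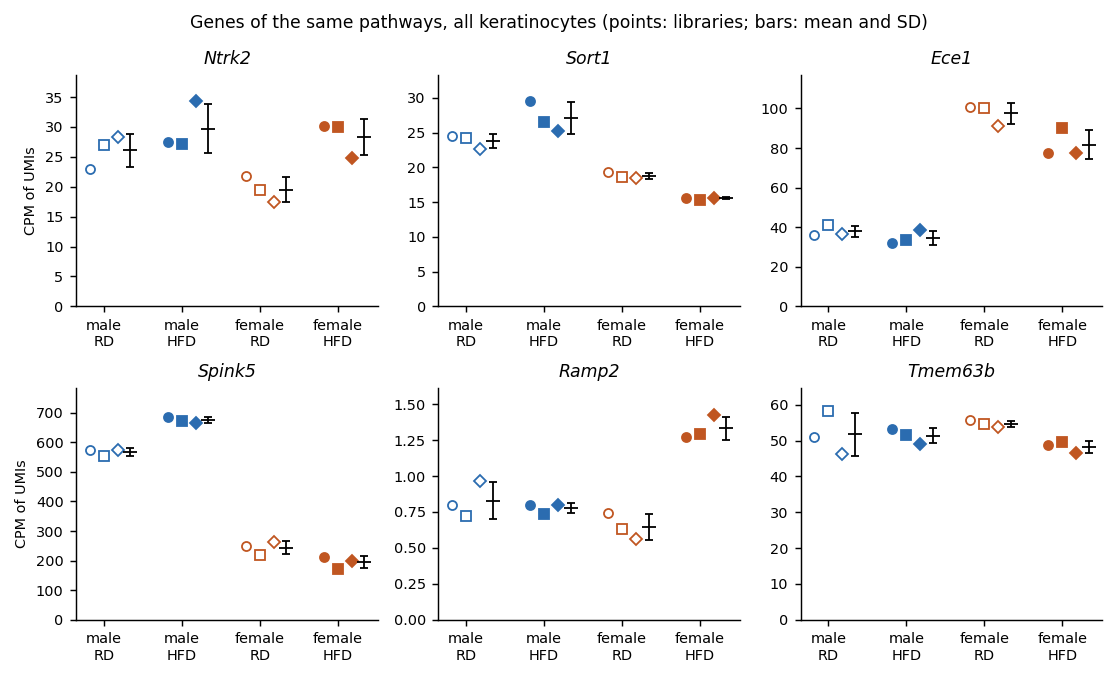
CPM over all keratinocytes (y axis, one panel per gene) of Ntrk2, Sort1, Ece1, Spink5, Ramp2 and Tmem63b in each library by sex and diet (x axis). In females Ramp2 and Ntrk2 lie higher and Sort1, Ece1 and Tmem63b lower under HFD than under RD, while Sort1 and Spink5 lie higher under HFD in males.

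The genes most like each of the 9 in their level over 16 points, the 8 cell classes of both sexes, were sought among 12642 genes by Pearson correlation of log2(CPM + 1), as a description across points that share libraries and depth. Many points lay under 20 UMIs per library: the gene was measured at 11 of the 16 points for Bdnf and Edn1, 12 for Trpv3, 13 for Piezo1, 8 for Artn, 7 for Ntf3 and Tslp, 5 for Gdnf and 4 for Calcb. The values of Ntf3, Tslp, Gdnf and Calcb therefore rest for the most part on points where the gene was not measured. Bdnf was closest to Hoxc13 (r = 0.956), Pak3 (0.946) and Mfsd9 (0.943), Ntf3 to Pitpnm3 (0.981), Pdgfc (0.974) and Gpr161 (0.974), and Gdnf to Dll1 (0.964), Fndc1 (0.962) and Ucn2 (0.959). Artn was closest to Stbd1 (0.954), 1700019D03Rik (0.945) and Gm33424 (0.940). Of the mediators, Edn1 was closest to Hspb1 (0.928), Tcaf2 (0.927) and Cldn4 (0.911), Tslp to C1rl (0.945), Cd59a (0.934) and Tmem53 (0.933), and Calcb to Tmprss11f (0.970), Arhgap40 (0.967) and Vasn (0.959). Trpv3 was closest to Slc22a23 (0.967), Arhgef37 (0.953) and Plekhh3 (0.947). Piezo1 was closest to Brpf3 (0.935), Daam1 (0.926) and Ippk (0.921), but over the 8 female points alone these values were 0.251, 0.889 and 0.510.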

How the data were processed

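Single-cell libraries (10x Chromium 3' chemistry) of hind paw epidermis were analysed from the matrices of whole-number UMI counts that the authors deposited, made with Cell Ranger on the mm10 (GRCm38) reference. The matrix headers name version 6.1.0 for males and 7.2.0 for females, whereas the submitters' processing notes name 7.2.0, with Seurat 5.0.0. The deposited matrices held called cells with no filter on genes. A barcode entered the analysis with 200 (males) or 500 (females) to 6000 genes detected and no more than 5% of its UMIs mitochondrial. Each sex was clustered in Python 3.11.15 with the Leiden algorithm on a graph of shared neighbors. It used 2000 variable genes without the 67 genes of interest, 10 principal components and 20 neighbors. A cluster was named from at least 3 markers. Doublets were left in, and removing them was an alternative. Because droplets can hold free RNA, levels in LC-like cells were set beside keratins.

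UMI counts were summed per library and class, and HFD was compared with RD in each sex by edgeR 4.0.16 (quasi-likelihood test, TMM, filterByExpr, two-sided, Benjamini-Hochberg adjustment over all genes tested, threshold 0.05), in R 4.3.3. The test was checked on simulated counts. DESeq2 1.42.0, other size factors, no filter on low counts, leaving out each library, a mitochondrial limit of 10%, doublet removal, a resolution of 0.6, a replicate block and LC-like cells of low keratin share were alternatives. Named were the 9 genes, the genes of 5 lists past the threshold (otherwise the highest gene of a list) and the 3 genes most correlated with each of the 9. Members, lists and tests were chosen with earlier results of these data known, and where a list was tested this is no independent evidence. The labels do not say that equal replicate numbers mark paired libraries. For equal numbers, deviations from the group means correlated at 0.092, 0.085 and 0.053 in males and -0.19, -0.10 and 0.059 in females. For unequal numbers the values lay between -0.148 and 0.099 in males and between -0.152 and 0.291 in females. The deviations of 3 libraries are tied to their group mean, so these values cannot decide whether libraries were paired. Gene positions and intron lengths came from the GRCm38 annotation, in which 32158 of 32285 identifiers were found. A level that rests on few UMIs carries a large counting error, which the SD over libraries includes.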

Additional observations from a re-analysis of the deposited data

Results flagged for a closer look

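None of the 9 genes passed the test of a diet effect that differs between the sexes, but 3 of 50 tested genes of the lists around them did, by the interaction term in edgeR over all keratinocytes, beside 1.53% of 18012 genes. Spink5, a protease inhibitor of the upper epidermis, had a male minus female difference in log2 fold change of 0.680 ± 0.14 (adjusted p = 0.0337). Its male values were 575, 554 and 573 CPM under RD and 687, 673 and 666 CPM under HFD, and its female values were 248, 219 and 263 CPM under RD and 214, 172 and 198 CPM under HFD. Spink5 was highest in the terminal-like cells of both sexes, at 2170 CPM in males and 598 CPM in females. Summed terminal differentiation markers were 10027–11536 CPM in RD and 14377–17724 CPM in HFD males, and summed basal markers 7743–8557 CPM in RD and 9343–10165 CPM in HFD females. The part of these shifts in the differences of Spink5 and Sort1 was not tested.

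Sort1 had a difference of 0.569 ± 0.11 (adjusted p = 0.0309), with 24.5, 24.2 and 22.6 CPM under RD and 29.6, 26.5 and 25.2 CPM under HFD in males, opposite to the lower female HFD values. Ramp2 had a difference of -1.03 ± 0.22 (adjusted p = 0.0403), with male values of 0.797, 0.722 and 0.968 CPM under RD and 0.801, 0.734 and 0.797 CPM under HFD. The 3 calls were lost in 10 (Ramp2), 8 (Sort1) and 7 (Spink5) of the 12 repeats that left out 1 library, with adjusted p up to 0.115, 0.0976 and 0.118. The Ramp2 call was also lost with a replicate block (adjusted p = 0.0855). With cells of up to 10% mitochondrial UMIs the adjusted p were 0.0552 for Sort1 and 0.0610 for Spink5. Sex and counting software cannot be told apart in these differences.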

How the results depend on the processing

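The count of the 9 genes called over all keratinocytes stayed at 0 in males under every alternative run. In females it stayed at 0 under all but DESeq2, which gave 2 beside 1441 of all genes. Over the classes the count was 0 in males and 1 with no filter on low counts (Bdnf, terminal-like). With no filter, 1310 of all genes were called in that class, against 1 in the main run. The log2 fold change of Bdnf there ranged from 0.20 to 0.58 over the alternatives that kept all libraries. In females the count over the classes was 1, and 4 with no filter: Edn1 and Tslp (proliferating-like), Artn (suprabasal-like) and Calcb (terminal-like). In these classes 955, 1064 and 115 of all genes were called with no filter. The female count was 0 with a replicate block, with cells of up to 10% mitochondrial UMIs, with doublets removed and at resolution 0.6. At these settings 0 to 241, 0 to 431, 0 to 583 and 0 to 397 of all genes were called per female class. Artn in suprabasal-like cells fell under the low-count filter in the mitochondrial and doublet alternatives, and DESeq2 gave it no adjusted p. In the female classes DESeq2 called none of the 9 genes, beside 12 to 1111 of all genes per class. Leaving out 1 library gave 0 to 1 in each sex, beside 0 to 714 of all genes per class in males and 0 to 848 in females. The cause of these changes was not tested.

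Whether replicate numbers pair the libraries is not known. A replicate block ended the calls of Artn in female suprabasal-like cells (adjusted p = 0.0938), Ramp2 (0.0961), Ntrk2 (0.0738), Ece1 (0.103), Sort1 (0.105) and Tmem63b (0.142), and of Ramp2 in the interaction (0.0855). The call of Tmem63b also ended with RLE size factors (0.0543), with no filter on low counts (0.0713) and with 10% mitochondrial UMIs (0.0503). Genes called over all female keratinocytes fell from 595 to 3 with the replicate block, in the interaction from 276 to 179, in male keratinocytes they went from 0 to 1, and in female LC-like cells from 7 to 0.

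Other counts of genes called also moved. Over male keratinocytes they were 202 with DESeq2, 89 with no filter and 0 to 1 on leaving out 1 library, and over female keratinocytes 1441 with DESeq2 and 2 to 910 on leaving out 1 library. In the interaction they were 986 with DESeq2, 117 with 10% mitochondrial UMIs and 20 to 519 on leaving out 1 library. In male LC-like cells they were 1 with DESeq2, 48 with no filter, 2 with doublets removed and 6 with a low keratin share. In female LC-like cells they were 40, 278, 92 and 64 in the same order and 0 to 43 on leaving out 1 library.

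Directions that turned belonged to log2 fold changes far from the threshold. In males Ntf3 was 0.014 and Edn1 -0.057 with 10% mitochondrial UMIs, Artn was 0.024 with the replicate block, and the interaction of Bdnf was 0.014 with doublets removed. On leaving out 1 library, males gave -0.26 to 0.17 for Ntf3, -0.40 to 0.22 for Artn, -0.23 to 0.28 for Edn1, -0.51 to 0.12 for Tslp and -0.24 to 0.11 for Trpv3. Females gave -0.018 to 0.34 for Bdnf, -0.21 to 0.54 for Edn1, -0.48 to 0.019 for Calcb and -0.028 to 0.16 for Piezo1. The interaction gave -0.18 to 0.18 for Bdnf, -0.55 to 0.19 for Edn1, -0.33 to 0.017 for Trpv3 and -0.034 to 0.27 for Piezo1. Calcb in females was 0.36 as a mean over the keratinocyte classes.

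Levels moved where the class changed its cells. At resolution 0.6 the migratory-like level of Bdnf was 10.2 CPM in males and 15.7 CPM in females, and in females that of Artn was 1.09 CPM, of Edn1 31.9 CPM and of Piezo1 85.3 CPM. In male terminal-like cells Edn1 was 13.4, 22.1 and 10.1 CPM and Piezo1 52.1, 50.4 and 61.3 CPM at resolution 0.6, with 10% mitochondrial UMIs and with doublets removed. In male LC-like cells, with doublets removed and with a low keratin share, Bdnf was 0.184 and 0.290 CPM, Edn1 1.58 and 1.495 CPM and Piezo1 3.73 and 3.40 CPM, and Trpv3 was 0.412 CPM with a low keratin share. In female LC-like cells, in the same order, Bdnf was 0.479 and 0.779 CPM, Ntf3 0.0789 and 0.134 CPM, Gdnf 0 and 0 CPM, Edn1 3.28 and 3.76 CPM, Trpv3 0.394 and 0.515 CPM and Piezo1 16.4 and 15.02 CPM.

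Depth limits Calcb in males, Artn in females, all 9 genes in male and all but Piezo1 in female LC-like cells. Sex and software cannot be told apart.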
